A study of Mus musculus with 22 samples.

Results

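The mouse genome holds a small group of protein-coding genes whose transcribed span is many times that of a typical gene, and the chromatin over their bodies was examined here in embryonic stem (ES) cells depleted of TERRA. A gene was counted as very long when its span over curated RefSeq transcripts on GRCm38, from the smallest start to the largest end, was at least 500 kb. Of 20021 protein-coding genes on chromosomes 1 to 19, 197 met this length, 151 of them under 1 Mb and 46 of 1 Mb or more, and the other 19824 served for comparison. The cells were CAST/Ei × 129/Sv/Jae hybrid ES cells grown in serum medium with LIF, and every library came from cells that had received an LNA gapmer 12 h before collection, either a scramble gapmer (scramble KD) or one against TERRA (TERRA KD). ATRX, H3K9me3 and G4 structures were profiled by ChIP-seq and open chromatin by ATAC-seq, with 2 replicates per condition for each assay, which gave 16 peak lists among 22 samples, the other 6 being input chromatin. The study calls its ATRX and G4 replicates biological, whereas the labels do not tie any library to a culture, so tests measure the spread between these libraries, which for H3K9me3 and ATAC may be technical. The cells are 1 hybrid line at 1 time point, the reads were aligned to the reference genome rather than to the parental genomes, and how far TERRA itself fell was not analysed here.

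TERRA is the telomeric repeat-containing RNA transcribed from chromosome ends. ATRX is a chromatin remodeler of heterochromatin and repeats that also recognizes G-quadruplex (G4) DNA, H3K9me3 is the histone mark of constitutive heterochromatin, and the BG4 antibody captures G4 structures. Very long genes are mostly introns. Many encode adhesion molecules, receptors and channels of neurons, several lie at common fragile sites, where chromosomes tend to break under replication stress, and most are weakly transcribed or silent in ES cells. A peak list says where enrichment passed a threshold in a pool of cells, so a site occupied in fewer cells and a site occupied more weakly in each cell cannot be told apart.

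The 197 genes had a median span of 724.9 kb, against 16.6 kb for the other genes. Summed, their bodies came to 163.4 Mb, which is 6.82% of the sequenced length of these chromosomes and 17.3% of the summed length of all 20021 genes. Exons took 0.877% of that length, against 7.93% in the other genes, although a long gene had a median of 19 exons and another gene 7. Their bodies were poorer in G+C, with a median of 40.0% (35.2% to 49.2%) against 45.8%, and a median of 26.9% of their bases was soft-masked as repeats against 21.2%. The longest were Ptprd, a receptor tyrosine phosphatase of synapses (chr4:75941237-78211742, minus strand, 2271 kb), Cntnap2, a neurexin-family adhesion protein (chr6:45060061-47301388, plus strand, 2241 kb), Lsamp, a limbic adhesion protein (chr16:39984364-42181679, plus strand, 2197 kb), Lrp1b, an LDL receptor relative (chr2:40596773-42653598, minus strand, 2057 kb), and Macrod2, a macrodomain hydrolase (chr2:140395430-142390050, plus strand, 1995 kb). At the threshold, Edil3 (501.8 kb), Dock1 (503.0 kb) and Car10 (503.4 kb) fell just inside, and Lrrc7 (494.6 kb), Ank3 (493.7 kb) and Abca13 (492.3 kb) just outside. Summed over the 4 ATRX libraries, the first 3 held 4, 11 and 4 ATRX peaks and the other 3 held 8, 13 and 10.

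A few stretches inside introns of long genes show what the ATRX peaks shared by both TERRA KD libraries, and absent from both scramble KD libraries, looked like. They are the 3 such peaks with the highest −log10 p in the weaker of the 2 libraries, and the 200 bases around the peak center are given on the plus strand of GRCm38, from RefSeq. In Lrmda and Gpc6 the capitals mark runs of CCT repeats, which together take 138 and 147 of the 200 bases. The stretch of A830018L16Rik holds no such run and has no capitals. All 200 bases of each stretch are soft-masked in the reference.
A830018L16Rik intron, chr1:11950319-11950518: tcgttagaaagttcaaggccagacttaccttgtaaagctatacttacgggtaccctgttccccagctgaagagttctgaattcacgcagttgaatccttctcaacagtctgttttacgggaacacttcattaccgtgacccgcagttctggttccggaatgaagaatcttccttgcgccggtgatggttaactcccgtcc
Lrmda intron, chr14:22080268-22080467: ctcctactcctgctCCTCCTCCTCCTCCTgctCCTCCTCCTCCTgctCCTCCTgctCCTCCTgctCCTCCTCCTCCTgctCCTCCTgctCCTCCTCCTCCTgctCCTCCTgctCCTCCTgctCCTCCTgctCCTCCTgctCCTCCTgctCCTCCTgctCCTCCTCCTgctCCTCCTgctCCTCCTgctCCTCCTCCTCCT
Gpc6 intron, chr14:117769957-117770156: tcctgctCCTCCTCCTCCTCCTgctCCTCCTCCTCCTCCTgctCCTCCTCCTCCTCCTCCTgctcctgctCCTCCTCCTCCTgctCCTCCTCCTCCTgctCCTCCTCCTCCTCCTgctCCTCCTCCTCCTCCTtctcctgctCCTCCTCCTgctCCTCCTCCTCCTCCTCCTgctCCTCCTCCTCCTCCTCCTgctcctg

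Long genes also carry G4 signal at their promoters. The 250 bases upstream of the start of Cntnap2 and of Sorcs1, a sorting receptor, are given because both promoters had a G4 and an ATAC peak in each of the 4 libraries and both match the quadruplex motif. The promoters of Galntl6, Mdga2, Sorcs3, Pard3 and Stpg2 had the same peaks, and their 250 upstream bases do not match that motif. Capitals mark that motif, which was searched on both strands as 4 runs of 3 or more G with 1 to 7 bases of any kind between runs, and in Cntnap2 the match is an unbroken run of C. The sequences are from RefSeq on GRCm38 and read 5′ to 3′ on the strand of the gene.
Cntnap2 promoter, chr6:45059811-45060060, plus strand: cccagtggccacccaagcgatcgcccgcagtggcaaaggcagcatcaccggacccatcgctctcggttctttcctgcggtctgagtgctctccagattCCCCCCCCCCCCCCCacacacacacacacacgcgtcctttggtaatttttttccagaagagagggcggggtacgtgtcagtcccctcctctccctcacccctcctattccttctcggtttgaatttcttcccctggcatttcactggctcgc
Sorcs1 promoter, chr19:50678647-50678896, minus strand: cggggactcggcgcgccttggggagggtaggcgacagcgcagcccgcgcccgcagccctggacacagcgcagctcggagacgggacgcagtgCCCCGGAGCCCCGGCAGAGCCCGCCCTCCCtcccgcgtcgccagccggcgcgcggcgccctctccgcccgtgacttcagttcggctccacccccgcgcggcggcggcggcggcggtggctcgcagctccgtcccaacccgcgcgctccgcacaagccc

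The libraries differed in depth and in peak number. The tag totals ran from 4104486 to 15506154 in ATRX libraries, from 5435286 to 13898785 in H3K9me3 libraries, from 2961038 to 24588605 in G4 libraries and from 5976014 to 7883648 in ATAC libraries. The scramble KD lists had 6898 and 12784 ATRX peaks on chromosomes 1 to 19 and the TERRA KD lists 39087 and 20884, and TERRA KD replicate 1 had the most peaks from the fewest tags. H3K9me3 peaks of replicate 1 were broad, with a median of 2268 and 2854 bp in the long genes, and those of replicate 2 narrow, with 479 and 502 bp, so their numbers cannot be set beside each other across replicates. As a check of the cell type, promoters of the pluripotency genes Pou5f1, Sox2 and Klf4 had an ATAC peak in 4 of 4 libraries, Nanog in 3 and Esrrb in 2, whereas Gfap, Alb and Ins2 had none, although Neurod1 and Myod1 also had one in 4 of 4. Below, values are peak centers per Mb of gene body unless stated, and 4 values in a row stand for scramble KD replicates 1 and 2 and then TERRA KD replicates 1 and 2.

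The first question was how densely each feature lies over long genes. ATAC and G4 peaks were sparser over them than over other genes in every library, ATRX peaks were sparser in 3 of 4, and H3K9me3 peaks were about as dense. Over the summed bodies of the 197 genes, ATAC peaks stood at 16.6, 20.2, 17.0 and 21.9 per Mb, against 43.4, 53.7, 48.4 and 56.6 in the other genes. The mean log2 ratio of long to other genes was −1.42 ± 0.06 (SD, n = 4 libraries), or 0.373-fold. G4 peaks stood at 39.0, 97.1, 42.8 and 59.3 per Mb against 67.8, 212.1, 98.2 and 123.0, with a mean log2 ratio of −1.04 ± 0.18 (SD, n = 4), or 0.485-fold. H3K9me3 peaks stood at 4.95, 20.5, 5.10 and 17.8 per Mb against 5.62, 17.0, 4.83 and 17.0, and their mean log2 ratio of 0.06 ± 0.19 (SD, n = 4) lay within the spread between libraries. ATRX peaks stood at 2.22, 5.11, 9.76 and 4.59 per Mb against 3.01, 4.75, 17.1 and 11.4. Their mean log2 ratio was −0.61 ± 0.60 (SD, n = 4), a spread as wide as the mean. No test is attached to these sums, since each is 1 value per library.

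**Figure D1:**
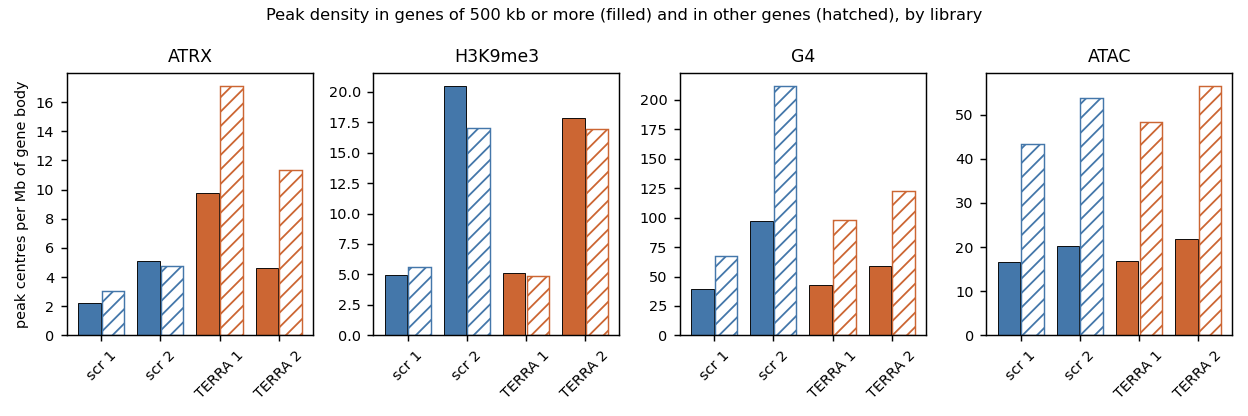
Peak centers per Mb of gene body (vertical axes, 1 panel per assay) in each library (horizontal axis, scr for scramble KD and TERRA for TERRA KD, with the replicate number), for the 197 genes of 500 kb or more (filled bars) and the other 19824 genes (hatched bars). The filled ATAC and G4 bars stay under the hatched ones in all 4 libraries, and the filled ATRX bar of TERRA KD replicate 2 (4.59) is close to that of scramble KD replicate 2 (5.11) while the hatched bars differ (11.4 and 4.75).

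The second question was what TERRA KD did to these densities. ATRX peaks over long genes were more numerous with TERRA KD in 1 replicate and not in the other. In replicate 1 the ATRX peaks in long genes went from 363 to 1595, a 4.39-fold increase (log2 2.14), whereas other genes went up 5.68-fold (log2 2.51). In replicate 2 they went from 835 to 750, which is 0.898-fold (log2 −0.15), whereas other genes went up 2.39-fold (log2 1.26). Both replicates therefore placed long genes below other genes, by −0.37 and −1.41 on the log2 scale, with a mean of −0.89. The lists of each replicate were also cut to the same number of peaks, keeping the strongest. The log2 ratios of long to other genes were then −0.44, 0.11, −0.48 and −1.39. Replicate 1 thus differed little between conditions at equal peak number, replicate 2 still fell, and the mean change was −0.77. Among the stronger peaks alone, with a −log10 p of 5 or more, the long genes held only 3, 5, 93 and 7 peaks, and the relative changes of replicates 1 and 2 came to 0.98 and −0.43 (mean 0.27). Replicate 2 thus kept the direction and replicate 1 did not, on very few scramble KD peaks. The median long gene had 1.79, 3.38, 8.48 and 3.27 ATRX peaks per Mb, and 51, 22, 3 and 28 of the 197 had none. For the other assays, the change relative to other genes had opposite signs in the 2 replicates. H3K9me3 gave 0.26 and −0.20 (mean 0.03), G4 gave −0.40 and 0.08 (mean −0.16) and ATAC gave −0.13 and 0.04 (mean −0.04). With 2 libraries against 2, at least 2 of the 6 arrangements of the libraries give a difference as large as any observed, so an exact permutation test could not pass 0.05 and none was run.

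The ATRX difference was next set beside gene length over the whole set of genes, and it declined with length mainly in replicate 2. The mean log2 change over both replicates was 2.61 in genes under 20 kb, 1.903 from 20 to 100 kb, 1.71 from 100 to 200 kb and 1.56 from 200 to 500 kb, and then 1.14 in the 151 genes of 500 kb to 1 Mb and 0.74 in the 46 of 1 Mb or more. In replicate 2 the same classes gave 2.23, 1.38, 1.06, 0.58, 0.10 and −0.57. In replicate 1 they gave 2.98, 2.42, 2.37, 2.54, 2.18 and 2.05, with no steady order from 20 to 500 kb. In the longest class ATRX peaks stood at 2.01, 5.91, 8.36 and 3.98 per Mb, so that TERRA KD replicate 2 lay below scramble KD replicate 2. ATAC density also fell from class to class in every library, and in the 46 longest genes it came to 13.0, 15.5, 12.6 and 16.2 per Mb, against 84.5, 100.6, 93.0 and 103.1 under 20 kb. G4 density fell likewise, to 34.8, 72.1, 36.5 and 44.8 per Mb. The sums over the classes were not tested.

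**Figure D2:**
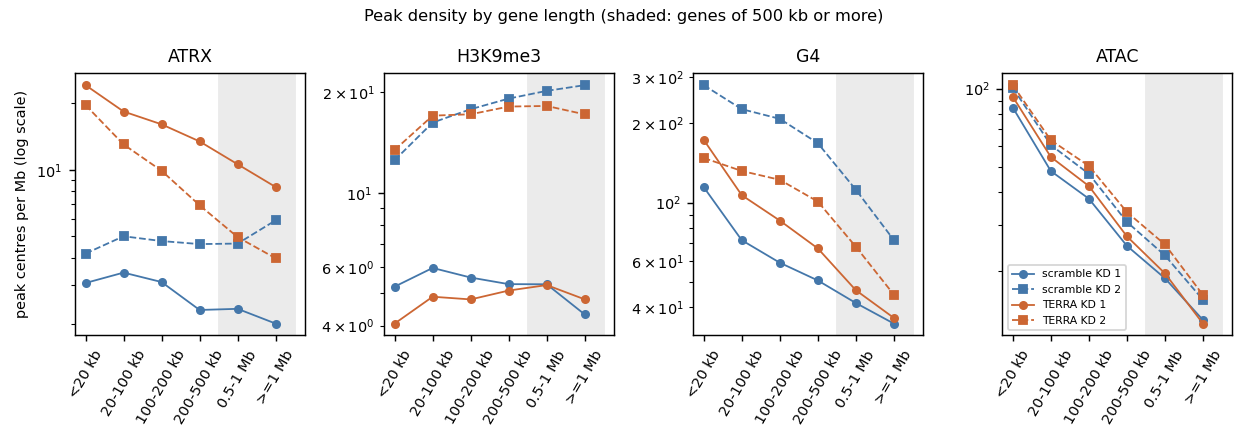
Peak centers per Mb (log scale, 1 panel per assay) by class of gene length (horizontal axis), 1 line per library with replicate 1 as solid circles and replicate 2 as dashed squares, scramble KD in blue and TERRA KD in orange; the shaded classes are the genes of 500 kb or more. The TERRA KD lines for ATRX fall with length while the scramble KD lines vary less, and the replicate 2 lines cross between 500 kb and 1 Mb (4.64 and 4.96) and 1 Mb or more (5.91 and 3.98).

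Gene by gene, each library can be compared with the others without any minimum. Both TERRA KD libraries lay above both scramble KD libraries in ATRX peaks per Mb in 68 of the 197 genes (34.5%) and below in 0. Over all 20021 genes the shares were 10.8% above and 0.375% below, and over the 701 genes of 200 to 500 kb, which hold enough peaks to compare, 36.4% and 1.14%, shares close to those of the long genes. When each density was divided by that of all other genes in the same library, 10 long genes (5.08%) lay above and 65 (33.0%) below. The background for these was 8.47% and 2.75% over all genes and 16.4% and 16.1% in the 200 to 500 kb class. For H3K9me3 divided the same way, 25 of 197 (12.7%) lay above and 7 below, beside 2.15% above and 1.43% below over all genes, and 12.6% above and 7.42% below in the 200 to 500 kb class. Undivided, 2 lay above and 1 below, beside 0.465% and 0.669% over all genes. Few genes could separate on that scale, since in both conditions the replicate 2 lists hold far more peaks per Mb than those of replicate 1. For G4 peaks per Mb, 24 (12.2%) lay below and 0 above, beside 4.51% below and 1.38% above over all genes and 5.28% below in the 200 to 500 kb class. Divided by other genes, 17 (8.63%) lay below and 5 (2.54%) above, beside 8.69% and 9.93% over all genes and 10.4% below in the 200 to 500 kb class, so the share below was then near the background. The 24 on the undivided scale included Ctnna3, Nrxn3, Csmd3 and Nlgn1, which were chosen after their values were seen. For ATAC divided by other genes, 30 (15.2%) lay above and 43 (21.8%) below, beside 7.43% and 10.5% over all genes and 15.7% and 17.7% in the 200 to 500 kb class. Undivided, 15 (7.61%) lay above and 10 (5.08%) below, beside 5.74% and 2.73% over all genes, so the balance turned with the scaling.

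A fit across all genes gave the test of each gene. edgeR's quasi-likelihood test on peak numbers, with Benjamini-Hochberg adjustment, called 0 genes at an adjusted p of 0.05 in each of the 4 assays (0% of the 525, 1243, 9850 and 5392 genes tested in ATRX, H3K9me3, G4 and ATAC), and DESeq2 also called 0. At an unadjusted p under 0.05, edgeR gave, in that order, 61 genes (11.6%), 19 (1.53%), 76 (0.772%) and 5 (0.0927%), and DESeq2 gave 10, 0, 1 and 0. Of the long genes, 132, 182, 197 and 194 had the 10 peaks needed to be tested, and 15, 4, 0 and 1 of them were at an unadjusted p under 0.05. The scaling matters for the direction of an ATRX fold change, as the median over the 525 genes was 0.44 with TMM scaling and 1.66 without scaling, so a fitted value is a change relative to the bulk of these genes. With no minimum number of peaks, edgeR called 3 genes for ATRX, Cdh13 and Wwox among them, and without scramble KD replicate 1 it called 3, with Ccser1 and Cntn4 among them, so calls in long genes turned on that minimum and on 1 library. Of the 15 long genes for ATRX, 11 had a negative fold change and 4 a positive one, with adjusted p from 0.149 to 0.404. Their share of the 132 tested long genes was close to the 11.6% of all genes tested. The median fitted log2 change was −0.14 in the tested long genes and 0.61 in the other tested genes. These medians cannot be set against each other. A shorter gene reaches 10 peaks only where it is dense in some library, and the TERRA KD lists are the longest, so the minimum itself favors positive values there.

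The ATRX density of long genes differed between chromosomes. Chromosomes 6 and 8, which were singled out after the values were seen, held ATRX peaks at 1.61 to 3.07 and 1.69 to 3.09 times the mean density of chromosomes 1 to 19 over their whole sequence, in each of the 4 libraries. Chromosome 14 stood at 1.03 to 1.43 times the mean and the other chromosomes between 0.590 and 1.09. The same chromosomes were also above the mean in H3K9me3 (1.30 to 1.80 and 1.21 to 1.62), G4 (1.03 to 1.28 and 1.22 to 1.35) and ATAC peaks (1.12 to 1.14 and 1.23 to 1.28), and what part this has in the ATRX densities was not tested. Of the 197 long genes 29 lie there, 16 on chromosome 6 and 13 on chromosome 8, and 19 of the 20 long genes densest in ATRX peaks are among them. These 29 held 5.29, 15.8, 16.4 and 12.0 ATRX peaks per Mb, and the other 168 held 1.66, 3.14, 8.54 and 3.23. The log2 changes of replicates 1 and 2 were 1.63 and −0.40 in the 29 genes and 2.36 and 0.04 in the 168. Without chromosomes 6 and 8, in long and other genes alike, the mean log2 ratio of long to other genes was −0.78 and its change with TERRA KD −0.72, so the direction was the same without them. Of the 15 long genes at an unadjusted p under 0.05, 10 were on chromosomes 6 and 8. The long genes there hold more ATRX peaks, and the matching share among all tested genes was not determined.

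The 4 long genes densest in ATRX peaks were all on chromosome 6, and 3 of them are described. Exoc4, a subunit of the exocyst that tethers secretory vesicles, had 10, 18, 18 and 7 peaks in its 725 kb. Magi1, a scaffold of cell junctions, had 8, 8, 14 and 15, and Foxp1, a forkhead transcription factor, had 8, 7, 13 and 14. In both of these genes the raw numbers were higher in both TERRA KD libraries, while the fitted log2 fold changes relative to all tested genes were −0.43 and −0.46. At the other end, Rgs6, a regulator of G-protein signaling, had 0, 0, 1 and 0 peaks, and Grik2, a kainate receptor subunit, had 0 in each library, the only long gene without an ATRX peak in any list.

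The fitted fold changes at the extremes rested on few peaks. Cntn4, a contactin of axons, had 6, 26, 10 and 5 peaks (log2 −2.30, edgeR adjusted p = 0.152), Inpp4b, a phosphoinositide phosphatase, had 5, 16, 3 and 6 (−2.35, adjusted p = 0.193), and Fgf14, an intracellular FGF that modulates sodium channels, had 2, 5, 3 and 0 (−2.44, adjusted p = 0.385). In Cntn4 and Inpp4b scramble KD replicate 2 held most of the peaks. Upward, Sema6d, a semaphorin, had 0, 0, 7 and 3 peaks, Spag16, a protein of the sperm flagellum, had 0, 1, 14 and 2, and St6galnac3, a sialyltransferase, had 0, 1, 15 and 1, so in the last 2 of these the difference was mostly that of replicate 1. Wwox, a tumor suppressor at a fragile site on chromosome 8, had 4, 9, 45 and 34 peaks (log2 1.34, edgeR adjusted p = 0.385), and Cdh13, an atypical cadherin of the same chromosome, had 8, 8, 42 and 28 (0.77, adjusted p = 0.702). In both genes both TERRA KD numbers lay above both scramble KD numbers. On the undivided scale this held in 34.5% of long genes and 36.4% of genes of 200 to 500 kb. Divided by the density of other genes, Wwox still lay above and Cdh13 did not. Both have G+C-rich bodies for long genes (45.8% and 45.9%). Ccser1, which lies on chromosome 6 and was chosen after its values were seen, had 7, 27, 15 and 5.

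**Figure D3:**
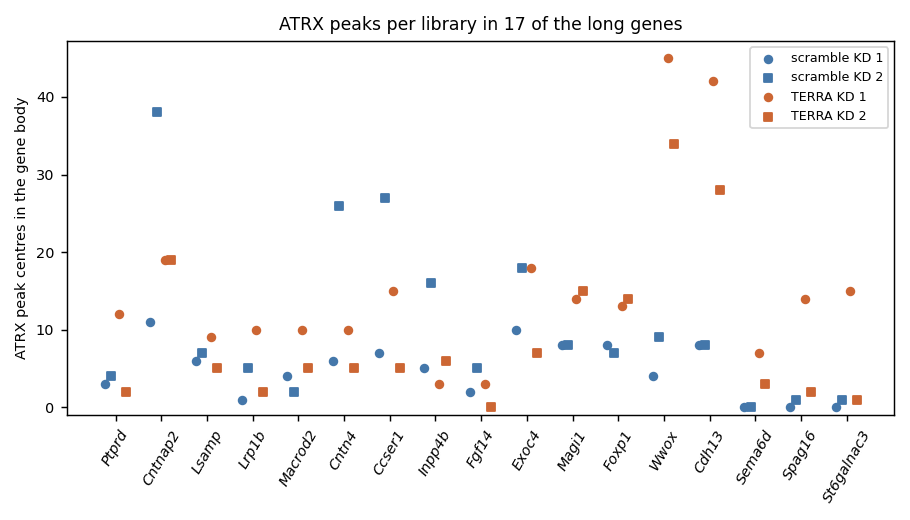
ATRX peak centers in the gene body (vertical axis) of 17 long genes (horizontal axis), 1 point per library, circles for replicate 1, squares for replicate 2, blue for scramble KD and orange for TERRA KD. Scramble KD replicate 2 is the highest point in Cntnap2, Cntn4, Ccser1 and Inpp4b (16 to 38 peaks), and both TERRA KD points are highest in Wwox and Cdh13 (28 to 45 peaks).

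The relation of ATRX density to base composition was stronger in both TERRA KD libraries than in both scramble KD libraries, a difference that was not tested. Across the 197 genes, Pearson's r between ATRX peaks per Mb and the G+C of the body was 0.16 and −0.15 in the scramble KD libraries and 0.47 and 0.37 in the TERRA KD libraries (Spearman's rho 0.18, −0.11, 0.47 and 0.31). In the 168 genes off chromosomes 6 and 8 the r values were 0.26, −0.09, 0.46 and 0.38. Split at the median G+C of 40.0%, the 99 genes at or below it had 1.98, 6.04, 7.12 and 3.32 ATRX peaks per Mb and log2 changes of 1.85 and −0.86. The 98 genes above it had 2.53, 3.96, 13.1 and 6.17 and log2 changes of 2.37 and 0.64. Against the 7648 other genes whose G+C lay within the 10th to 90th percentile of the long genes (36.8% to 44.4%), the relative ATRX change shrank from −0.89 to −0.27, and to −0.14 when chromosomes 6 and 8 were also left out. The log2 ratios of long genes to these genes were −0.42, −0.24, −0.50 and −0.69. Off chromosomes 6 and 8 they were −0.61, −0.56, −0.55 and −0.90, so the ratio rose slightly with TERRA KD in replicate 1 and fell in replicate 2. G+C, length and chromosome differ together between long and other genes, and their parts in the ATRX difference cannot be told apart with these sums.

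**Figure D4:**
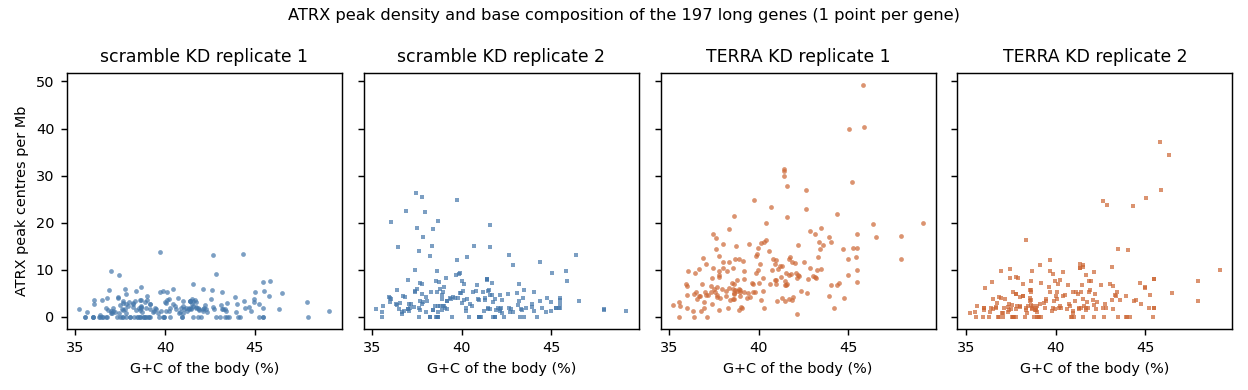
ATRX peak centers per Mb (vertical axis) against the G+C percent of the gene body (horizontal axis) in each ATRX library, 1 point for each of the 197 long genes. The r with G+C is 0.47 and 0.37 in TERRA KD replicates 1 and 2, weaker at 0.16 in scramble KD replicate 1, which has the fewest peaks, and −0.15 in scramble KD replicate 2.

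G4 density followed G+C more closely than ATRX did. Its r with the G+C of the body was 0.53, 0.83, 0.73 and 0.81 over the 197 genes, and that of ATAC density 0.42, 0.46, 0.45 and 0.49. H3K9me3 density had an r of 0.30, 0.39, 0.50 and 0.21 with the soft-masked share and of 0.23, −0.06, 0.01 and 0.22 with G+C, so in TERRA KD replicate 2 the 2 were alike. The genes share their library and its depth, and these values are descriptions. Against other genes of like G+C, the mean log2 ratio was −0.37 for G4 and −0.83 for ATAC, both smaller gaps than against all other genes, and that for H3K9me3 turned to −0.17. The likeness of replicates over the long genes differed between assays. Between replicates of a condition the r of density per gene was 0.96 and 0.97 for ATAC, 0.70 and 0.89 for G4, 0.67 and 0.75 for H3K9me3, and 0.51 and 0.67 for ATRX. Spearman's rho was lower for ATRX (0.32 and 0.51) and H3K9me3 (0.55 and 0.72).

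The long genes densest in G4 peaks were rich in G+C and the sparsest poor in it. Camta1, a calmodulin-binding transcription activator and the long gene richest in G+C (49.2%), had 85, 325, 165 and 212 G4 peaks, Csmd2, a complement-domain membrane protein, had 36, 215, 87 and 142, and Wwox had 73, 362, 118 and 184. Erbb4, a neuregulin receptor with 36.0% G+C, had 20, 29, 20 and 19 in a body of 1076 kb, and Skint5, of the Skint family of epidermal immunoglobulin-like proteins, had 1, 9, 3 and 9 in 522 kb. The lowest fitted log2 changes in G4 were those of Marchf1, a ubiquitin ligase (45, 72, 28 and 37 peaks, −0.68), Grik2 (22, 24, 12 and 14, −0.68) and Nlgn1, a neuroligin (28, 35, 19 and 17, −0.65). In each of these the TERRA KD libraries lay below both scramble KD libraries, and the edgeR adjusted p was 0.998. The highest fitted values were those of Skint5 (0.59), Sorcs1 (9, 23, 17 and 19 peaks, 0.49) and Nfia, a nuclear factor I gene (13, 52, 28 and 38, 0.41), in which the conditions overlapped.

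H3K9me3 was unevenly spread among long genes. Cdh13 was the densest, with 28, 85, 20 and 94 peaks, or 4.72 times the density of other genes, and A830018L16Rik had 10, 27, 16 and 24. Between them stood Gm37013 and Gm38666, models of 889 and 874 kb on chromosome 18 that read through the protocadherin clusters and overlap over most of their length, so they are not separate observations. Ntm, an adhesion protein of the same family as Lsamp, had 0, 1, 0 and 4 peaks and Plcb1, a phospholipase C, had 0, 3, 0 and 2, in bodies of 969 and 689 kb. The highest fitted changes belonged to Slit3, a Robo ligand (1, 1, 2 and 11 peaks, log2 2.58), Cdkal1, a tRNA-modifying enzyme (3, 3, 4 and 10), and Lpp, a focal adhesion protein (1, 2, 1 and 6), and each rested on TERRA KD replicate 2. The lowest belonged to Galnt13, a glycosyltransferase (2, 11, 2 and 1), Kcnd2, a potassium channel (0, 16, 1 and 3), and Foxp2, a forkhead factor (0, 23, 0 and 6), and each rested on scramble KD replicate 2. The edgeR adjusted p was 0.982 for each of these 6 genes.

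In ATAC the protocadherin read-through models led (Gm37013 with 80, 91, 83 and 102 peaks), followed by Etl4, a cytoskeletal protein also called Skt, with 33, 41, 32 and 42. Fstl5, a follistatin-like secreted protein, had 1, 2, 2 and 1 peaks in 635 kb and Skint5 had 1, 0, 1 and 3. The highest fitted changes were Mctp1, a calcium sensor of membranes (4, 7, 9 and 10), Zfp804b, a zinc finger protein (2, 4, 5 and 5), and Enox1, a surface oxidase (12, 16, 20 and 26), in each of which both TERRA KD libraries lay above both scramble KD libraries. The lowest were Ralyl, an RNA-binding protein (7, 9, 2 and 7), Grm8, a metabotropic glutamate receptor (12, 15, 7 and 9), and Foxp2 (7, 9, 2 and 8). Their edgeR adjusted p was 0.994, and every one of these counts is small.

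Along the body, ATAC and G4 peaks gathered at the start, H3K9me3 peaks did not, and the few ATRX peaks there were mostly those of TERRA KD replicate 1. Within 1 kb downstream of the start, ATAC centers stood at 533.0, 624.4, 583.8 and 578.7 per Mb and G4 centers at 385.8, 533.0, 543.1 and 96.4, so that TERRA KD replicate 2 lacked most of the G4 peaks at starts. ATRX centers stood there at 5.08, 0, 55.8 and 10.2 per Mb, from 1, 0, 11 and 2 peaks, and at 3.95, 2.82, 14.1 and 5.64 from 1 to 10 kb. The first kb was denser than the rest of the body in both TERRA KD libraries, on 11 and 2 peaks. It was also denser in scramble KD replicate 1, on 1 peak. H3K9me3 had 0, 1, 0 and 0 peaks there. From 50 kb on, ATRX density by distance from the start stayed between 1.78 and 2.37 per Mb in the first scramble KD library, 4.16 and 5.26 in the second, 8.02 and 10.05 in the first TERRA KD library and 4.01 and 5.08 in the second, so most of its peaks were spread through the body. With each body cut into 10 equal segments from start to end, ATAC density rose from 11.1, 14.8, 11.3 and 14.6 per Mb in segment 2 to 22.5, 28.3, 24.8 and 31.8 in segment 10. G4 density in segment 10 was 132.0 per Mb against 83.7 in segment 5 for scramble KD replicate 2, 77.2 against 53.1 for TERRA KD replicate 2, 51.0 against 38.2 for TERRA KD replicate 1 and 39.2 against 37.6 for scramble KD replicate 1. ATRX density in segment 10 was 2.39, 4.77, 12.9 and 6.37 per Mb. It was the densest segment in both TERRA KD libraries and in neither scramble KD library, a difference that was not tested. Exons made up 0.877% of the length of the long genes and held 0.367% to 1.79% of ATRX peak centers and 0.375% to 0.776% of H3K9me3 peak centers. The exonic share was 2.34% to 4.23% of G4 peak centers and 4.89% to 5.75% of ATAC peak centers.

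**Figure D5:**
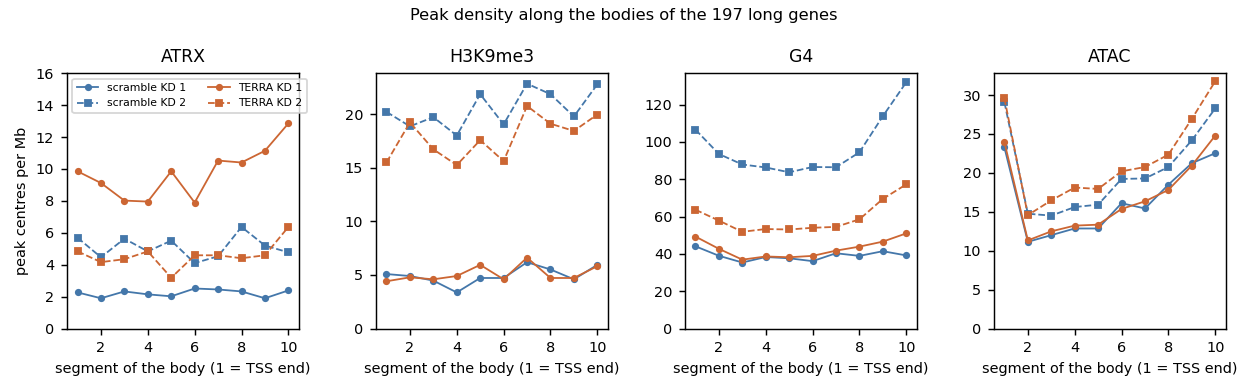
Peak centers per Mb (vertical axes, 1 panel per assay) in each of 10 equal segments of the gene body from the start (1) to the end (10), summed over the 197 long genes, 1 line per library, circles and solid lines for replicate 1 and squares and dashed lines for replicate 2. ATAC drops from segment 1 to segment 2 (11.1 to 14.8) and rises toward segment 10 (22.5 to 31.8), and ATRX shows no such drop.

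Promoters of long genes were open more often than those of other genes, in spite of their sparse bodies. An ATAC peak lay within 1 kb of the start in 157, 166, 164 and 168 of the 197 genes (79.7% to 85.3%), against 65.6% to 70.0% of the other genes and 82.6% to 87.0% of the genes of 200 to 500 kb. It was present in all 4 libraries in 153 and in none in 26. A G4 peak was there in 111, 142, 137 and 39 (56.3%, 72.1%, 69.5% and 19.8%), against 44.9%, 66.1%, 51.8% and 20.7% of other genes. ATRX lay there in 1, 1, 20 and 2 (0.508%, 0.508%, 10.2% and 1.02%), against 1.11%, 0.580%, 8.36% and 5.01% of other genes, so TERRA KD replicate 2 was lower in long genes and TERRA KD replicate 1 was not. H3K9me3 lay there in 4, 3, 5 and 1, against 1.98%, 1.67%, 2.11% and 1.63% of other genes. The 1 long gene (0.508%, against 0.615% of other genes) with an ATRX peak there in both TERRA KD libraries and in no scramble KD library was Gm38667, another of the chromosome 18 read-through models. Besides Cntnap2, the longest genes with both an ATAC and a G4 peak in all 4 libraries were Galntl6, Sntg1, Mdga2, Sorcs3 and Grm5, of 10 in all.

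The 153 long genes with an open promoter in all libraries and the 26 without one had nearly the same ATRX density over their bodies (2.25, 5.22, 9.48 and 4.45 against 2.15, 5.001, 10.3 and 5.001 per Mb). ATAC density was lower in the 153, with log2 ratios of −0.36, −0.36, −0.37 and −0.45 to the 26, at similar median G+C (39.7% and 40.1%). For 157 of the long genes 254 RefSeq promoters were found, and the motif was searched in the 250 bases upstream of each start. In 22.8% of these windows the quadruplex motif was present, against 20.5% of those of other genes and 16.7% of all 32851. It stood in 27.2% of the windows of long genes with a G4 peak at the start in 3 or 4 libraries and in 15.9% of those with a peak in 0 or 1.

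ATRX peaks were seldom at the same place in both replicates, in long genes and in other genes alike. Of the peaks in long genes, counted once where genes overlap, 3.38% (scramble KD replicate 1), 1.47% (scramble KD replicate 2), 3.97% (TERRA KD replicate 1) and 8.39% (TERRA KD replicate 2) overlapped a peak of the other replicate by 1 base or more, whereas for ATAC peaks this was 65.0% to 84.8%, for H3K9me3 27.9% to 65.8% and for G4 19.6% to 54.6%. In other genes the ATRX shares were 4.04%, 2.55%, 4.50% and 6.66%. The median ATRX peak in long genes held 6, 10, 5 and 10 tags. ATRX peaks of the TERRA KD libraries overlapped H3K9me3 peaks of the same number more often in long genes than in other genes, at 24.3% (373 of 1537) against 14.3% in replicate 1 and 15.1% (110 of 727) against 6.89% in replicate 2. In the scramble KD libraries the shares were 10.1% against 10.1% and 8.69% against 9.997%. With G4 peaks the order was the other way, at 14.4% against 21.2% and 19.4% against 32.0% in TERRA KD and at 8.17% against 9.13% and 14.3% against 22.6% in scramble KD. The share of ATRX peaks whose central 500 bases were soft-masked by 95% or more was 11.3%, 19.5%, 22.0% and 19.4% in long genes, where 6.66% of 322054 windows of that size reach it.

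The 61 ATRX peaks of TERRA KD replicate 1 in long genes that replicate 2 also holds included 14 that overlap a scramble KD peak and 47 that do not. The same split was not counted in other genes. Of all TERRA KD ATRX peaks, 2.21% (replicate 1) and 2.06% (replicate 2) in long genes overlapped a scramble KD peak of the same number. In other genes the shares were 1.89% and 1.73%. The 47 peaks without a scramble KD peak lie in 37 genes, 45 of them in introns and 19 on chromosomes 6 and 8. An H3K9me3 peak of at least 1 library lay over 34, a G4 peak over 30, an ATAC peak over 9, and none of these over 6. In 26 the central 500 bases were soft-masked by 95% or more, 6 held the quadruplex motif, 2 held 4 copies of AGG in a row on either strand and 0 held 2 copies of TTAGGG in a row on either strand. The CCT stretches printed above are these 2, CCT being AGG on the opposite strand, and 4 such copies occur in 0.560% of windows of 500 bases in long genes. Among all ATRX peaks in long genes the shares were 0.563%, 0.122%, 0.716% and 0.688%, none far above that of the windows, so these 2 peaks are examples only. In the peak of A830018L16Rik, the −log10 p was 12.2 and 4.60 in TERRA KD replicates 1 and 2 with a fold enrichment over input of 36.5 and 5.34, from 22 and 20 tags. In that of Lrmda the −log10 p was 4.16 and 6.03, and in that of Gpc6 8.41 and 3.43. H3K9me3 peaks of all 4 libraries lay over that of A830018L16Rik, and G4 peaks of all 4 over those of Lrmda and Gpc6.

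Among all peaks in long genes, the quadruplex motif stood in 31.1%, 26.6%, 35.8% and 29.9% of the G4 peaks, where 6.89% of windows hold it, and in 6.48%, 4.28%, 7.87% and 11.8% of the ATRX peaks. A run of 10 CA repeats, on either strand, stood in 26.0%, 7.58%, 21.6% and 11.8% of the G4 peaks against 5.28% of windows. The telomeric word, 2 copies of TTAGGG in a row on either strand, stood in 6, 5, 11 and 6 ATRX peaks (1.69%, 0.612%, 0.716% and 0.825%), where 61 of the windows (0.0189%) hold it. These traits are not particular to long genes. In other genes the quadruplex motif stood in 36.9%, 20.9%, 33.6% and 23.0% of G4 peaks and 10 CA repeats in 18.5%, 5.41%, 12.0% and 7.44%. The telomeric word stood there in 1.83%, 1.07%, 0.512% and 0.472% of ATRX peaks. The shares describe letters in a window and no binding site, and 4 copies of TTAGGG in a row also meet the quadruplex motif.

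The long genes were also described by family. Lists of families taken from background knowledge covered 115 of the 197 genes. Of 28 synaptic adhesion genes, 7 lay below in both TERRA KD libraries relative to other genes and 0 above, with 1.80, 4.87, 7.58 and 3.53 ATRX peaks per Mb. Ptprd had 3, 4, 12 and 2 peaks, Cntnap2 11, 38, 19 and 19, and Lsamp 6, 7, 9 and 5. Beside the 65 below and 10 above among all 197, these counts set no family apart, and no list was tested. Of 4 cadherins and protocadherins 1 lay below and 0 above, and Pcdh9, a protocadherin, had 1, 2, 2 and 2 peaks.

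Of 7 glutamate and GABA receptors, 3 lay below and 0 above, with 4.06, 11.3, 9.48 and 6.43 ATRX peaks per Mb. Their median relative density of 0.833 was above that of the 197 genes (0.516), and Grm7 and Grm8 are among those on chromosome 6. Grm7, a metabotropic glutamate receptor, had 2, 12, 9 and 4 peaks. Of 11 ion channel genes 3 lay below and 0 above, and Kcnip4, a potassium channel interactor, had 2, 8, 10 and 2. Of 7 axon guidance genes 3 lay below and 1, Sema6d, above. Robo2, a Slit receptor, had 3, 1, 7 and 3 peaks and Dcc, a netrin receptor, had 1, 3, 5 and 1.

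Of 22 genes at common fragile sites, 9 lay below and 1, Wwox, above, with 2.43, 5.70, 9.95 and 4.79 ATRX peaks per Mb, close to the 2.22, 5.11, 9.76 and 4.59 of all long genes. Their promoters were open in all 4 libraries in 21. Lrp1b had 1, 5, 10 and 2 peaks, Macrod2 had 4, 2, 10 and 5, and Csmd1, on chromosome 8, had 3, 21, 26 and 13. Of 13 transcription factors and co-regulators 5 lay below and 2, Npas3 and Camta1, above. Auts2, a Polycomb-associated regulator, had 0, 2, 17 and 4 peaks and Camta1 had 1, 1, 16 and 8. This family had the lowest median H3K9me3 of the lists, at 0.422 of the density of other genes against 0.859 for the 197.

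Of 10 growth factor and kinase signaling genes 6 lay below and 0 above. Prkg1, a cGMP-dependent kinase, had 2, 5, 5 and 4 peaks. Of 18 scaffold and cytoskeletal genes 9 lay below and 1, Dlgap2, above. Magi2, a synaptic scaffold, had 4, 5, 12 and 4 peaks and Dlg2, a postsynaptic scaffold, had 0, 2, 5 and 1. Of 4 RNA-binding proteins 1 lay below and 0 above, and Rbfox1, a splicing regulator, had 2, 2, 1 and 4. The phosphodiesterase Pde4d had 4, 10, 19 and 10 ATRX peaks and 44, 50, 44 and 49 ATAC peaks, and had no ATAC peak within 1 kb of its most upstream start.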

How the data were processed

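The 16 peak lists were used as the authors deposited them. Per the submitters' processing notes, reads were trimmed with Trim Galore 0.5.0, aligned with Bowtie2 2.3.4.1 to mm10 and filtered with SAMtools 1.9. Peaks were called in each library alone with MACS, for ChIP against input. The deposited lists give for each ChIP peak a tag count, a score proportional to the −log10 of its p and a ratio, the fold enrichment over input, and for each ATAC peak a pileup signal, a fold enrichment and a −log10 p. These deposited values are not scaled between libraries, so peaks were counted and their strengths not compared.

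Genes and sequences came from RefSeq GRCm38. A peak was assigned to a gene by its center, and the start of a gene was its most upstream one. Peak numbers per gene were tested with edgeR 4.0.16 in R 4.3.3 (quasi-likelihood, TMM, at least 10 peaks over 4 libraries, Benjamini-Hochberg over all genes tested), with DESeq2 1.42.0 as an alternative. Other values were computed in Python 3.11.15. The procedure was tested on simulated data. Samples were grouped by their labels. Peak numbers depend on depth, and a site without a peak was not detectable at that depth rather than empty.

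The genes and lists were chosen with earlier results of these data known. Genes named are the 5 longest, the 3 on each side of 500 kb, per assay the 4 densest, 2 sparsest and 3 with the highest and the lowest fitted log2 fold change, those with the promoter patterns described, and the longest of each family. Genes named outside this rule were chosen after their values were seen, and some genes that meet it are not reported here.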

Additional observations from a re-analysis of the deposited data

How the results depend on the processing

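The values are log2 ratios of long to other genes, or their change with TERRA KD. The ATRX change (−0.89) turned to 0.27 with the stricter p (−log10 p of 5 or more), from 0.98 and −0.43 in replicates 1 and 2 and 3, 5, 93 and 7 peaks in long genes, and moved to −0.27 against other genes of like G+C and −0.14 when chromosomes 6 and 8 were also left out. The latter choice, like counting overlapping bodies once and leaving out these chromosomes, was made after seeing the data. Leaving out 1 library gave −1.16 to −0.62 for the ATRX change and −0.85 to −0.38 for the ATRX ratio. The H3K9me3 ratio (0.06) turned to −0.17 against genes of like G+C and to −0.24 without chromosomes 6 and 8 as well. The G4 ratio (−1.04) moved to −1.35 for the stricter peaks, −0.79 against genes of 100 to 500 kb and −0.37 against like G+C (−0.40 without chromosomes 6 and 8). It moved to −1.38 for the covered share and −1.35 for members of 1 Mb or more. The median long gene against the median gene of 100 to 500 kb gave −0.77, near the −0.79 of the sums. The ATAC ratio (−1.42) moved to −1.59 with any overlap, −0.94 against 100 to 500 kb and −0.83 against like G+C (−0.82 without chromosomes 6 and 8). It moved to −1.18 beyond 10 kb from a start and −1.82 for 1 Mb or more. The medians, taken as for G4, gave −0.97, near the −0.94 of the sums. For ATRX and H3K9me3 the medians gave no mean over all 4 libraries, since in some the median gene of 100 to 500 kb had 0 peaks. Where defined, they gave −0.55 and −0.95 for ATRX in TERRA KD replicates 1 and 2. For H3K9me3 they gave 0.64 and 0.51 in scramble KD replicates 1 and 2 and 0.49 in TERRA KD replicate 2. The sums over the same class gave −0.14, 0.15 and 0.01 there, so for H3K9me3 the medians lay above the sums. The cause was not tested.

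The number of genes edgeR called for ATRX was 3 with no minimum number of peaks (among them Cdh13 and Wwox, log2 1.52 and 2.06), 3 without scramble KD replicate 1 (among them Ccser1 and Cntn4, −2.49 and −2.80) and 4, none of them long, without TERRA KD replicate 1 (range 0 to 4), so these calls turn on single libraries. With the replicate block, 0 genes were called in each assay and the changes of −0.89, 0.03, −0.16 and −0.04 (ATRX, H3K9me3, G4, ATAC) were the same, as a mean of paired differences equals the difference of means. The deviations of same-numbered libraries had an r of −0.01, 0.33, 0.48 and 0.08 over 2207 genes of 100 kb or more, so same-numbered libraries deviated together in H3K9me3 and G4. With 2 pairs and no label that ties a number to a culture or day, the numbers were not used to pair samples. The ATRX fit at the stricter p could not be made.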
